A study of Mus musculus with 8 samples.

Results

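NF-kB is a family of dimeric transcription factors that links cell surface receptors for cytokines and microbial products to genes of inflammation, adhesion and survival. In resting cells the dimers are held in the cytoplasm by inhibitor proteins such as IkBa, and receptor signalling through the IKK kinases destroys the inhibitor and frees them. In the liver the pathway protects hepatocytes from death induced by TNF and drives part of the chemokine output of injured tissue. The set described here holds 10 genes chosen by name: the factors Nfkb1, Nfkb2, Rela and Relb, the feedback genes Nfkbia, Tnfaip3 and Birc3, and the inflammatory targets Ccl2, Cxcl1 and Icam1. All single-symbol probe sets of these genes in the deposited table were taken, which gave 18 probe sets for 9 genes out of 34945 such probe sets for 18193 genes. Nfkb1 was not analysed here.

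The study compared 4 arrays of Bmi1-overexpressing hepatoblasts with 4 arrays of control hepatoblasts expressing EGFP, numbered 1 to 4 in each group. Hepatoblasts are fetal liver cells that give rise to hepatocytes and to the bile duct lining, and Bmi1 is a subunit of Polycomb repressive complex 1. Both groups were Ink4a-Arf-null, so the controls lack this locus too. Dlk-positive cells from embryonic day 14.5 livers were sorted with magnetic beads, transduced after 12 to 18 h with EGFP or Bmi1, and grown with 50 ng/ml HGF and 20 ng/ml EGF to day 28, when flow cytometry was used to purify transduced cells. RNA equal to 10000 cells passed a 2-cycle amplification before hybridisation on Affymetrix mouse arrays. The series text names 4 independent experiments. The sources used here do not name the vector.

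The values are signal intensities on a linear scale, each array scaled by the authors to the same trimmed mean, and the number of arrays limits the precision. The arrays fell into 2 sets by their spiked control BioC (3' probe set), which read 198 to 274 for replicates 1 and 2 and 97.0 to 119 for replicates 3 and 4. Control 1 had a Gapdh 3' over 5' signal ratio of 3.10, against 1.65 to 1.96 on the other 7 arrays. Signal for Bmi1 itself was lower in the arrays labelled Bmi1, with 279 ± 60.01 there and 518 ± 218 in the arrays labelled control (SD, n = 4 each; adjusted p in limma 0.465 without a block, 0.0252 with replicate number as one). Directions below follow the labels; where the probes lie relative to the introduced sequence is not stated. Cdkn2a, the gene of the deleted locus, was above background on 1 of 4 arrays labelled Bmi1 and 0 of 4 arrays labelled control. Hepatoblast markers were high on all arrays, with Afp at 3695 to 6249 in Bmi1 arrays and 3911 to 6271 in control arrays, and Dlk1 at 1572 to 3133 in Bmi1 arrays and 543 to 2103 in control arrays.

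Promoters of NF-kB target genes are known to hold a short element that the dimers bind, and 5 promoters are shown because their genes are known targets of the factors. RefSeq promoter windows on GRCm38.p6 matched 7 of the 10 genes in 10 windows, and the 250 bases before each start were searched on both strands. The searched motifs were the decamer NF-kB consensus and the 9-base form GGAAATTCC, which can overlap. The decamer was found in 6 of the 10 windows and in 7.25% of 32851 promoter windows of the genome. Of those 6 windows, 3 belong to Nfkb2, lie inside its annotated gene and are not printed, and windows 2 and 3 of them overlap. The genes were chosen as NF-kB factors and targets, so a share above that of the genome is no result of these data. The 9-base form was found in 4 of the 10 and in 0.286% of all. Capitals mark the matches, and bases inside the annotated gene are left out.
Cxcl1: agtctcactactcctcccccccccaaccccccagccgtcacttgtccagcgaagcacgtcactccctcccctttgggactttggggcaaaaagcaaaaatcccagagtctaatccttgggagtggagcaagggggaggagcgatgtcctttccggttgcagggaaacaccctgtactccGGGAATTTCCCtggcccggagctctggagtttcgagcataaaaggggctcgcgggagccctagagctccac
Nfkbia: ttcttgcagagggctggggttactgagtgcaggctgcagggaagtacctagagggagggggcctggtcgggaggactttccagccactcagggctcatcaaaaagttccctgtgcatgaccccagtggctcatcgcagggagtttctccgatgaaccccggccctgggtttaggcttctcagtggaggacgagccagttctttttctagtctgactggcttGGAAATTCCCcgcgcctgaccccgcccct
Tnfaip3: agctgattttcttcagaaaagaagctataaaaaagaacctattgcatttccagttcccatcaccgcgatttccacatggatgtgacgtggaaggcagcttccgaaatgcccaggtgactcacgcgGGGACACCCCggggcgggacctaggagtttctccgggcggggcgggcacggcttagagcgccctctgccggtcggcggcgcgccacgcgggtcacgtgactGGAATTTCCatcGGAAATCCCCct
Icam1: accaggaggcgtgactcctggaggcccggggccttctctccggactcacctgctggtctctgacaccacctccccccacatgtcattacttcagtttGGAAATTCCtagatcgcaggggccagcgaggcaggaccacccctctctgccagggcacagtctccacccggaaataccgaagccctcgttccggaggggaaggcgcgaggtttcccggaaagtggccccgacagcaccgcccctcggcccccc
Birc3: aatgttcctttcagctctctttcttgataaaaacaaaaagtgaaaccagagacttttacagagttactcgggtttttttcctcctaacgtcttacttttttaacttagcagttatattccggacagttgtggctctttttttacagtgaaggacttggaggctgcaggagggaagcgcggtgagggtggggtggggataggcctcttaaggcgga
They lie at chr5:90890995-90891244 on the plus strand (Cxcl1), chr12:55492648-55492897 on the minus strand (Nfkbia), chr10:19015411-19015660 on the minus strand (Tnfaip3), chr9:21015690-21015939 on the plus strand (Icam1) and chr9:7873206-7873420 on the minus strand (Birc3). In the Cxcl1 window 2 overlapping decamers and the 9-base form share 1 block, 71 to 61 bases before the start. In Nfkbia the block lies 29 to 20 bases before it, and Tnfaip3 holds the 9-base form at 24 to 16 and decamers at 125 to 116 and 12 to 3. The Icam1 window has the 9-base form alone, at 153 to 145 bases. The Birc3 window has neither form, which says only that these letters are not in it.

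Of the 9 measured genes, 0 passed in limma between the groups without a block (Benjamini-Hochberg adjusted p under 0.05 over 10916 genes), where 0.165% of all tested genes did. At an unadjusted p under 0.05 there was 1 of the 9, Birc3, against 7.81% of all tested genes. Arrays of the same number were taken as pairs, as set out with the processing. With the replicate number as a block 1 of the 9 fell and 0 rose, against 1.95% and 1.36% of all tested genes (3.32% in either direction). That gene was Birc3. At an unadjusted p under 0.05 with the block there were 3 of the 9, Birc3, Ccl2 and Cxcl1, against 18.0% of all tested genes. With each probe set tested by itself, 0 of the 16 tested probe sets of these genes passed without a block, where 0.0429% of all did, and 1 fell with the block, where 1.10% of all fell. The 9 genes had a median log2 difference (Bmi1 minus control) of -0.18, beside -0.03 for all tested genes. A lower mean in Bmi1 arrays was found for 7 of the 9 and for 54.1% of all tested genes. After centring of the arrays, a lower Bmi1 array in 3 of the 4 pairs was found for 5 of the 9 and for 24.2% of all tested genes. In 4 of 4 pairs it was found for 1 of the 9 and for 15.8%. Nfkbia and Tnfaip3 are among the 5, though their uncentred signal was lower in only 2 of 4 pairs. In 0 of the 9 did the groups stand apart without overlap, as 4.83% of all tested genes did. The cells were measured in bulk, so fewer cells of a type and less RNA per cell cannot be told apart.

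**Figure D1:**
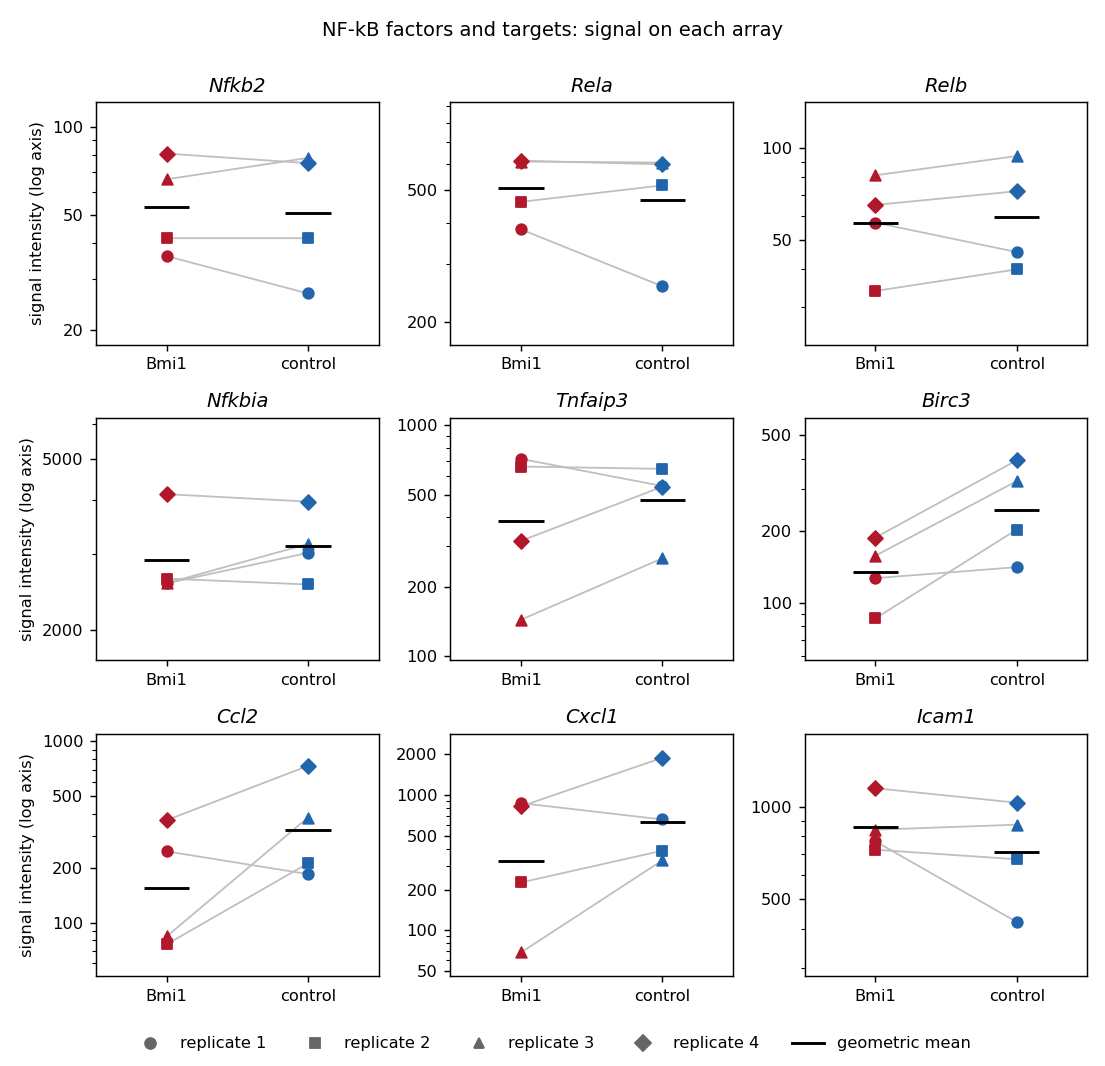
Signal intensity on a log axis for the 9 measured genes, 1 point per array, with Bmi1 arrays at the left and control arrays at the right of each panel. Symbols give the replicate number, grey lines join arrays of the same number and black bars are geometric means; for Birc3 all 4 lines run higher on the control side, and for Icam1 those of replicates 2 to 4 are nearly level.

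The subunits of the dimers themselves did not differ beyond their spread. Rela encodes p65, the subunit that activates transcription in the canonical pathway. It read 382, 462, 611 and 615 in Bmi1 arrays 1 to 4, against 257, 518, 607 and 599.7 in control arrays 1 to 4. The groups overlapped, control 1 was the lowest array, and the log2 difference was 0.04 (SE 0.26, 95% interval -0.55 to 0.63, limma adjusted p = 0.996). Relb, the partner of p52 in the non-canonical pathway, read 56.8, 33.9, 81.3 and 65.0 in Bmi1 arrays, against 45.5, 39.96, 94.0 and 72.1 in control arrays. Its log2 difference was -0.14 (95% interval -0.84 to 0.57), and in both groups replicate 2 was lowest and replicate 3 highest. Nfkb2 encodes p100, which is both the precursor of p52 and an inhibitor of RelB. Its brighter probe set read 35.99, 41.5, 66.1 and 81.0 in Bmi1 arrays, against 26.8, 41.5, 78.3 and 75.1 in control arrays. That is a log2 difference of -0.01 with a 95% interval of -0.79 to 0.77. Replicates 3 and 4 lay above replicates 1 and 2 in both groups for Nfkb2 and Rela. The second Nfkb2 probe set, a cross-hybridising one by its name, read 24.2 ± 14.6 in Bmi1 arrays and 21.9 ± 9.98 in control arrays (SD, n = 4 each).

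Of the 3 feedback genes, Birc3 passed with the block and Nfkbia and Tnfaip3 did not. Nfkbia encodes IkBa, the inhibitor that NF-kB induces to end its own activity, and 5 probe sets read it. The brightest gave 2571, 2636, 2572 and 4137 in Bmi1 arrays, against 3024, 2555, 3171 and 3976 in control arrays. Replicate 4 was high in both groups, and the log2 difference was -0.18 (SE 0.17, 95% interval -0.57 to 0.21, limma adjusted p = 0.947). Over the 5 probe sets, each tested by itself, the differences ran from -0.26 to 0.17, and 0 passed with or without the replicate block. The probe sets gave 1 pattern across arrays in 4 cases, with a Pearson r over the 8 arrays of 0.75 to 0.97 between them. The dimmest, at 76.4 ± 34.7 in Bmi1 arrays and 85.4 ± 32.04 in control arrays, correlated with the others at -0.30 to -0.07.

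**Figure D2:**
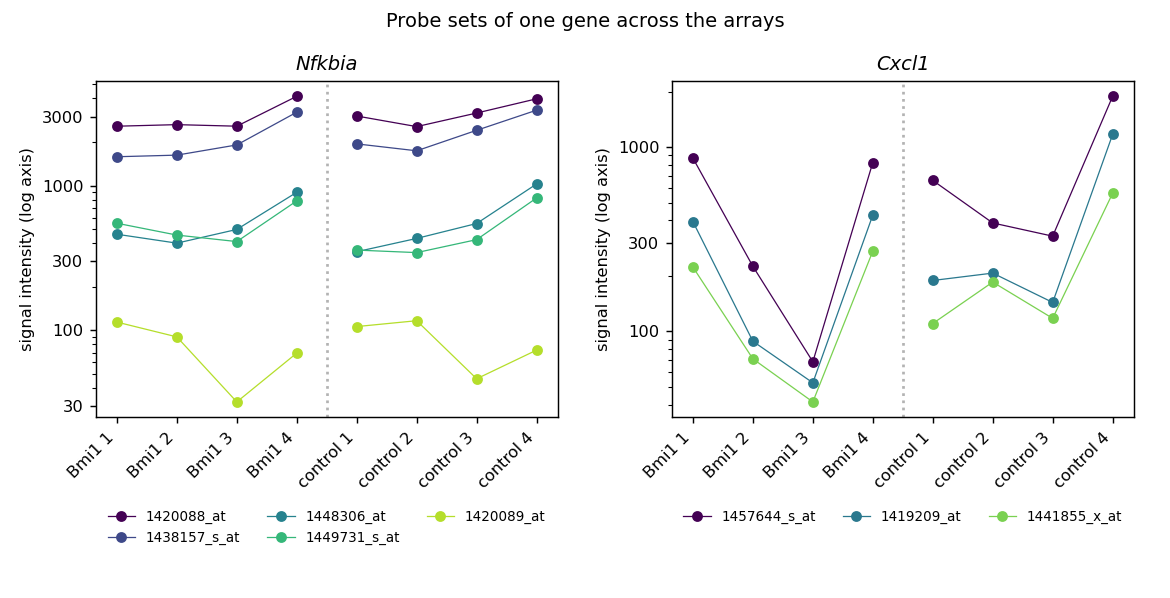
Signal intensity on a log axis of the 5 Nfkbia and 3 Cxcl1 probe sets on each array, Bmi1 arrays at the left of the dotted line and control arrays at the right. Thin lines only trace a probe set and give the replicates no order; the 3 Cxcl1 probe sets share 1 pattern, lowest on Bmi1 3 and highest on control 4.

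Tnfaip3 encodes A20, the ubiquitin-editing enzyme that shuts off signalling from the TNF receptor. It read 715, 662, 144 and 316 in Bmi1 arrays, against 545, 647, 266 and 542 in control arrays. Replicate 3 was lowest in both groups. The mean difference within pairs was 0.12 over replicates 1 and 2 and -0.87 over replicates 3 and 4. The test of whether the difference depends on the set of replicates gave an unadjusted p of 0.122 in limma, and 0 of the 9 genes passed it after adjustment, as 0% of all tested genes did. The log2 difference over all arrays was -0.38 (SE 0.52, 95% interval -1.53 to 0.78, limma adjusted p = 0.967). A second probe set was too dim for the level filter and read 7.33 ± 3.89 in Bmi1 arrays and 12.3 ± 2.56 in control arrays (SD, n = 4 each), above background on 3 of 4 arrays of each group.

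Birc3 encodes cIAP2, a ubiquitin ligase at the TNF receptor that inhibits caspase activation and is itself induced by NF-kB. It read 127, 86.0, 157 and 187 in Bmi1 arrays, against 141, 202, 322 and 394 in control arrays. Every Bmi1 array lay below the control array of its number, as in 15.8% of all tested genes, but Bmi1 3 and 4 lay above control 1, so the groups overlapped. The log2 difference was -0.93, which is 1.90-fold lower in Bmi1 arrays (SE 0.32, 95% interval -1.65 to -0.21, limma adjusted p = 0.427). With the replicate block the interval was -1.36 to -0.50 and the limma adjusted p was 0.0414. With replicates 1 and 2 against 3 and 4 as the block the limma adjusted p was 0.0451, where 0.879% of all tested genes fell. The pairs differed by -0.24, -1.28, -1.10 and -1.09, so pair 1 moved least. The call with the replicate block rests on all of the later pairs: the adjusted p in limma was 0.149, 0.157 and 0.137 without replicate 2, 3 or 4, and 0.0239 without replicate 1. It also missed the threshold without centring (0.0512) and with quantile normalisation (0.0507). The other Birc3 probe set was at or near background, with 6.66 ± 6.57 in Bmi1 arrays and 4.18 ± 3.36 in control arrays (SD, n = 4 each). With the probe sets averaged, the log2 difference was -0.33 and the adjusted p with the block was 0.443.

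The secreted chemokines were lower in Bmi1 arrays in 3 of 4 pairs and did not pass. Ccl2 encodes MCP-1, which draws monocytes. It read 248, 76.1, 84.1 and 368 in Bmi1 arrays, against 186, 213, 380.4 and 733 in control arrays. Pair 1 ran the other way, and the groups overlapped. The log2 difference was -1.11 (SE 0.57, 95% interval -2.38 to 0.16), with an adjusted p of 0.752 in limma and 0.151 with the replicate block. Without replicate 1, the pair that ran the other way, the blocked difference was -1.58 with an adjusted p of 0.0369 in limma. There 177 of 10916 tested genes passed. Without replicate 2, 3 or 4 the blocked adjusted p in limma was 0.355, 0.395 and 0.266. Cxcl1, a neutrophil attractant, varied most: its brightest probe set read 871, 225, 68.5 and 824 in Bmi1 arrays, against 659, 387, 329 and 1885 in control arrays. The highest array stood 27.5-fold above the lowest, and Bmi1 1 and 4 lay above control 2 and 3. The log2 difference was -1.01 (SE 0.83, 95% interval -2.87 to 0.84), with an adjusted p of 0.930 in limma and 0.180 with the replicate block. The other 2 Cxcl1 probe sets gave -0.80 and -0.76, and each pair of the 3 correlated at 0.93 to 0.99 over the 8 arrays. With all 4 replicates the blocked adjusted p of these 2 in limma was 0.364 and 0.375, and pair 1 ran the other way (0.96 and 0.91). Without replicate 1, both of these dimmer Cxcl1 probe sets passed with the block when each probe set was tested by itself. The brightest did not. The share of all probe sets that passed in that setting is not given here. Without replicate 2, 3 or 4, 0 of the Cxcl1 probe sets passed.

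Icam1, the adhesion molecule that binds leukocyte integrins, was higher rather than lower in the mean. It read 771, 724, 841 and 1147 in Bmi1 arrays, against 422, 674, 873 and 1029 in control arrays. Control 1 was low, the other 3 pairs were close, and the groups overlapped. The log2 difference was 0.19 (SE 0.24, 95% interval -0.36 to 0.74, limma adjusted p = 0.961).

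**Figure D3:**
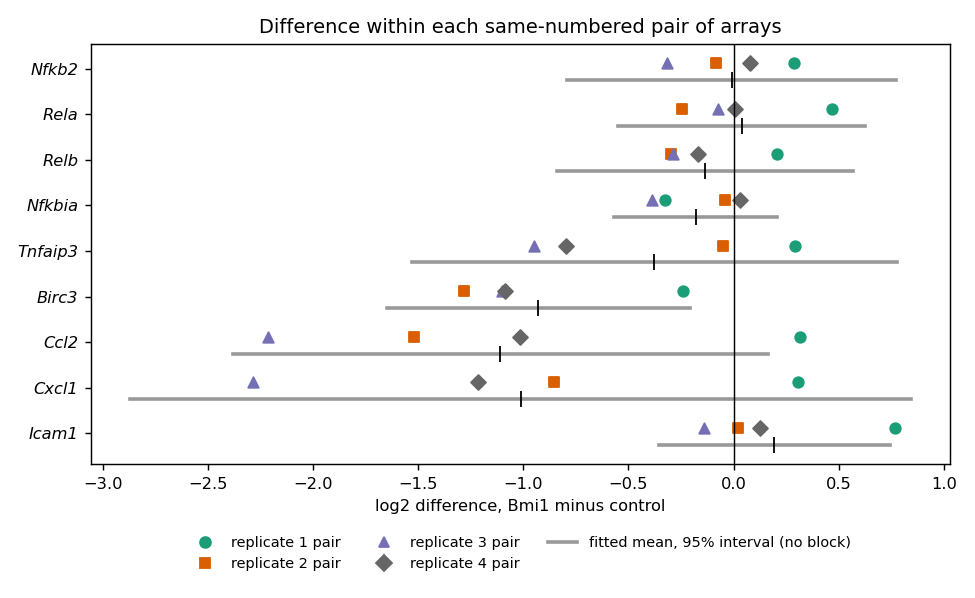
Log2 difference of centred values, Bmi1 minus control, within each same-numbered pair of arrays (symbols) for the 9 measured genes. Grey bars give the 95% interval around the fitted mean without a block. Pair 1 lies right of 0 for 7 of 9 genes and pair 3 left of 0 for 9 of 9, and the interval excludes 0 for Birc3 alone before adjustment.

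The direction differed between pairs, counted here on the centred log2 values. Before centring, Rela was slightly higher on Bmi1 3 (611 against 607 on control 3). Nfkb2, Nfkbia and Tnfaip3 were slightly higher on Bmi1 2 than on control 2 before centring. In pair 1, 7 of the 9 genes were higher in the Bmi1 array, with a median log2 difference of 0.29, whereas 49.1% of all tested genes were higher there. In pair 3, 0 of the 9 were higher and the median was -0.39, against 46.3% of all tested genes. In pairs 2 and 4, 1 and 4 of the 9 were higher. Control 1, the array of pair 1 with the high Gapdh ratio, also had the highest summed signal of 13 stellate cell and fibroblast markers, 17189, where the other control arrays had 5478 to 10048 and the Bmi1 arrays 3807 to 9125. The part of RNA quality or of these cells in the pair 1 values was not tested.

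Genes that varied most like 3 of the set were taken over all 8 arrays by Pearson r of the centred log2 values, as a description. The arrays share replicate numbers and fall into 2 sets. The genes named are the highest of 10916 tested genes over only 8 arrays, so their r is high by selection and tests no link. The 3 nearest to Birc3 were Plekha8 (0.97), Tmem19 (0.96) and the liver glucuronosyltransferase gene Ugt2b36 (0.96). The 3 nearest to Nfkbia were Fem1b (0.96), the basement membrane gene Nid1 (0.95) and Mettl15 (0.94). The 3 nearest to Ccl2 were Slc35e1 (0.94), Cdk8 (0.94) and Fadd (0.94), the adaptor of death receptors. Within the set, Ccl2 correlated with Birc3 at 0.83 and with Cxcl1 at 0.83, while Rela correlated with Nfkb2 at 0.89 and with Cxcl1 at -0.21.

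Upstream of the factors, 1 ligand rose with the replicate block, as 1.36% of all tested genes did. Of 9 ligand genes of the pathway 2 were above the level filter. Of these 0 passed in limma without a block, with 0 at an unadjusted p under 0.05, against 0.165% and 7.81% of all tested genes. Ltb, lymphotoxin beta, which signals through the lymphotoxin beta receptor to the non-canonical pathway, read 50.9, 27.4, 160.2 and 137 in Bmi1 arrays, against 13.3, 11.01, 60.1 and 63.0 in control arrays. Every Bmi1 array lay above the control array of its number, as in 11.4% of all tested genes, and replicates 3 and 4 lay above replicates 1 and 2 in both groups. The log2 difference was 1.23, or 2.34-fold, with a limma adjusted p of 0.765 without a block, 0.0185 with the replicate block and 0.0298 with the set of replicates as the block. Without replicate 3 or 4 the blocked adjusted p was 0.0955 and 0.0661. The other tested ligand was Il33 (0.19, limma adjusted p = 0.985). Of the ligands too dim to test, Il1a and Lta were above background on 0 of 8 arrays. Tnf was above it on 1 of 4 Bmi1 arrays and 2 of 4 control arrays, with 44.6 on control 2. Il1b was above it on 4 of 4 Bmi1 arrays and 3 of 4 control arrays, Il18 on 4 of 4 and 4 of 4, and Tnfsf11 on 2 of 4 and 1 of 4.

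**Figure D4:**
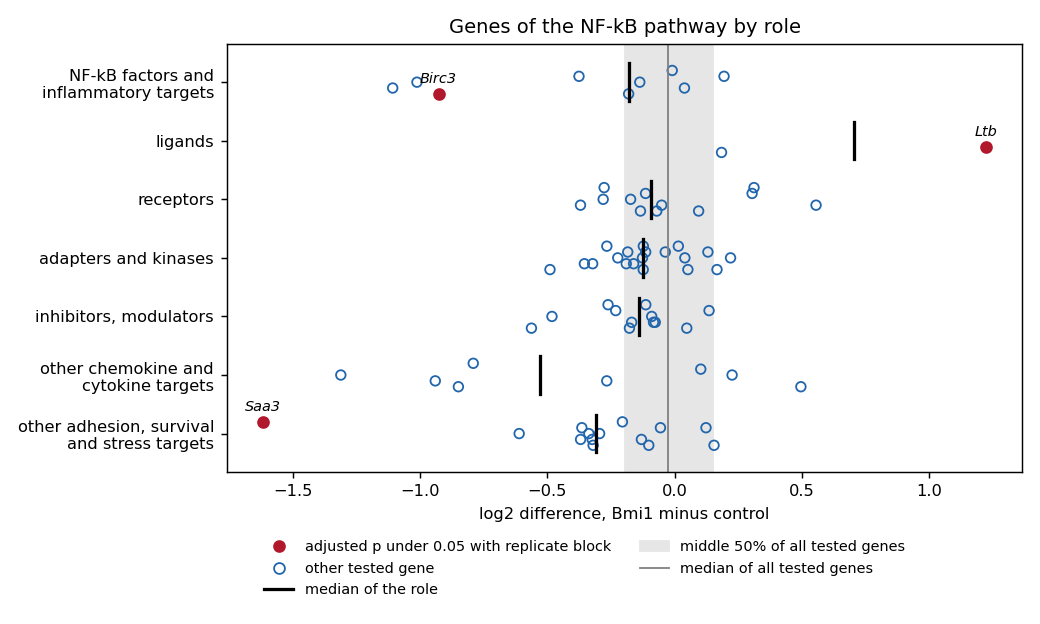
Log2 difference, Bmi1 minus control, of every tested gene of the pathway by role, with the median of each role as a black bar and the middle 50% of all tested genes in grey. Filled points passed with the replicate block, which were Birc3, Ltb and Saa3. The medians of all roles but the ligands, of which only 2 were tested, lie below the -0.03 of all tested genes.

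Between receptor and factor, no tested gene passed. Among all tested genes, 54.1% were lower, and 0.165% passed in limma without the block and 3.32% with it. An unadjusted p under 0.05 in limma was found for 7.81% of all tested genes without the block and 18.0% with it. Of 12 tested receptor genes 8 were lower and 4 higher, with a median of -0.09, and 0 passed in limma with or without the replicate block (0 and 0 at an unadjusted p under 0.05). The 2 with the smallest p were Tnfrsf12a, the TWEAK receptor (log2 difference -0.28), and Cd40 (0.56). Of 19 adapters and kinases 13 were lower and 6 higher, with a median of -0.12, and 0 passed in limma in either model, with 1 and 2 at an unadjusted p under 0.05. Ikbkb, the kinase that marks IkBa for destruction, read 283, 316, 302 and 304 in Bmi1 arrays, against 378, 321, 378 and 360.5 in control arrays. Its groups did not overlap, as in 1.81% of all tested genes with Bmi1 lower (-0.32, limma adjusted p = 0.593, and 0.206 with the block). Map3k7, the kinase TAK1 above it, differed by -0.49 (adjusted p = 0.775 in limma). Of 12 inhibitors and modulators 10 were lower and 2 higher, with a median of -0.14, and 0 passed in limma in either model, with 1 and 1 at an unadjusted p under 0.05. Nkiras1, which encodes the IkB-interacting protein kB-Ras1, read 88.5 ± 12.1 in Bmi1 arrays and 126 ± 14.7 in control arrays (SD, n = 4 each), a log2 difference of -0.56 (limma adjusted p = 0.4004, and 0.0738 with the block). Otud7b, the deubiquitinase Cezanne, differed by -0.48 (limma adjusted p = 0.679).

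Among other known targets, 5 of 8 tested chemokines and cytokines were lower, with a median of -0.53, where 54.1% of all tested genes were lower. Of these 8 genes 0 passed in limma in either model, against 0.165% and 3.32% of all tested genes. At an unadjusted p under 0.05 there were 0 and 3 of the 8, against 7.81% and 18.0% of all tested genes. Cxcl10, an interferon and NF-kB target that draws T cells, read 52.7, 33.4, 69.8 and 107 in Bmi1 arrays, against 39.996, 39.3, 294 and 219.6 in control arrays. The gap lay in replicates 3 and 4 (log2 difference -0.79, limma adjusted p = 0.925, and 0.289 with the block). Cxcl16, a membrane-bound chemokine, was higher in the mean, with 145 ± 48.0 in Bmi1 arrays and 101 ± 47.5 in control arrays (SD, n = 4 each; log2 difference 0.50, limma adjusted p = 0.867). Of 14 tested adhesion, survival and stress targets 12 were lower, with a median of -0.31. Without a block 0 passed in limma, with 1 at an unadjusted p under 0.05 (7.81% of all tested genes). With the block 4 of the 14 had an unadjusted p under 0.05 in limma (18.0% of all tested genes). In 4 of 4 pairs 4 of the 14 were lower and 0 higher (15.8% and 11.4% of all tested genes). After adjustment 1 fell with the block (1.95% of all tested genes). That gene was Saa3, an inflammation-induced serum amyloid. It read 619, 15.0, 18.0 and 724 in Bmi1 arrays, against 883, 77.0, 56.7 and 3117 in control arrays. Replicates 1 and 4 were high and 2 and 3 low in both groups, and every Bmi1 array lay below its control (log2 difference -1.62, limma adjusted p = 0.947, and 0.0202 with the block). With the set of replicates as the block the call was lost (adjusted p in limma 0.720), and without control 4 the unblocked log2 difference was -0.58. Without replicate 2, 3 or 4 the blocked adjusted p lay between 0.0627 and 0.0683, and without replicate 1 it was 0.0185.

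**Figure D5:**
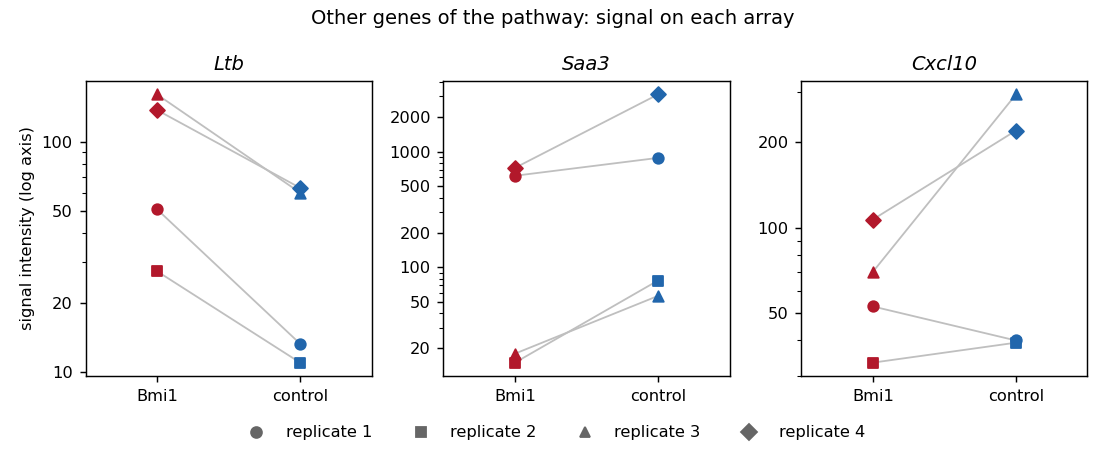
Signal intensity on a log axis for Ltb, Saa3 and Cxcl10, 1 point per array, with Bmi1 arrays at the left and control arrays at the right of each panel and lines joining arrays of the same replicate number. Ltb is higher in Bmi1 arrays in 4 of 4 pairs and Saa3 lower in 4 of 4, while Cxcl10 differs mainly in replicates 3 and 4.

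Markers of other cells that produce or answer to these cytokines were measured beside the set. Among all tested genes 54.1% had a lower mean, and with the block 1.95% fell and 1.36% rose. Higher in 4 of 4 pairs were 11.4% of all tested genes. Of 16 macrophage and leukocyte markers 4 were above the level filter, all 4 with a lower mean, and 1 fell with the block (Lcp1, named after its value was seen). The summed signal of all 16 was 269 to 605 in Bmi1 arrays and 420.4 to 970.4 in control arrays. Ptprc, the pan-leukocyte gene, was above background on 0 of 4 Bmi1 arrays and 1 of 4 control arrays, while Csf1r read 80.5 to 425 in Bmi1 arrays and 168 to 514 in control arrays. Of 13 stellate cell and fibroblast markers 11 were tested and 11 had a lower mean, with a median of -1.01, and 1 fell with the block (Acta2, named after its value was seen). The median over these 11 was -4.16 in pair 1, which holds control 1, and -0.21, -0.54 and -0.43 in pairs 2 to 4. Col1a2 ranged from 146 to 867 in Bmi1 arrays and from 54.9 to 3343 in control arrays. All 4 tested mesothelial markers had a lower mean, among them Msln and Wt1, and Msln fell with the block. The summed signal of all 5 was 51.0 to 208 in Bmi1 arrays and 134 to 385 in control arrays. Of 11 endothelial markers 2 were tested, 1 with a lower and 1 with a higher mean, and 1 rose with the block and was higher in 4 of 4 pairs (Egfl7, named after its value was seen). The summed signal of all 11 was 287 to 391 in Bmi1 arrays and 158 to 271 in control arrays, without overlap, while Pecam1 and Tek were above background on 0 of 8 arrays. The groups overlapped for each of the 2 tested markers, and the rest of the sum comes from markers below the level filter. Of 5 tested biliary markers 4 had a higher mean and 1 a lower one (Cldn4, -0.43, named after its value was seen). Krt19 and Epcam were higher in 4 of 4 pairs, and Epcam rose with the block (0.99, limma adjusted p = 0.0222). Summed hepatoblast markers were 23227 to 36520 in Bmi1 arrays and 24188 to 36416 in control arrays. Of the 10 hepatoblast markers, all tested, 6 had a lower and 4 a higher mean, and with the block 0 fell and 1 rose. At an unadjusted p under 0.05 in limma with the block there were 4 of the 10 (18.0% of all tested genes). In 4 of 4 pairs 3 were lower and 2 higher (15.8% and 11.4% of all tested genes). The part of other cell types in the values of Birc3, Ccl2, Cxcl1 and Saa3 was not tested.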

How the data were processed

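Signal intensities of 45101 probe sets on a linear scale were deposited by the authors; the sources used here do not state the software. Per the values, every array has a mean of 100 once the top and bottom 2% are left out. Platform annotation gave 34945 probe sets 1 symbol, 932 several and 9160 none, beside 64 control probe sets. To each value 3.78 (the overall median over 4) was added before log2, which understates folds of dim genes. A gene was tested on its brightest probe set when its mean level reached the 40th percentile (10916 of 18193 genes), and arrays were centred on the median of those genes. Of the 18 probe sets of the described genes, 16 were tested.

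The test was limma 3.58.1 (R 4.3.3; moderated, with a trend on level; two-sided; Benjamini-Hochberg; threshold 0.05), without a block. The correlation of deviations between same-numbered arrays was 0.53, 0.49, 0.50 and 0.68 for numbers 1 to 4. For different numbers within replicates 1 and 2 it was 0.48 (Bmi1 2 with control 1) and 0.12 (Bmi1 1 with control 2). Within replicates 3 and 4 it was 0.36 (Bmi1 3 with control 4) and 0.28 (Bmi1 4 with control 3). Across the 2 sets it was negative. Each array was closest to its own number, though narrowly for Bmi1 2, and the number was taken as the pair. An array's background was the 95th percentile of 27 Bacillus control probe sets. The models were run on simulated data with known differences. Those data gave both groups the same replicate levels, so they cannot test whether same-numbered arrays are pairs. The genes and lists were chosen with earlier results of these data known. Named beside them are Bmi1 and Cdkn2a, pathway genes called with or without the replicate block or else the 2 of a list with the smallest p, up to 4 genes of each marker list in list order, and the 3 genes most correlated with Nfkbia, Birc3 and Ccl2. The series text does not say how the cultures were separated beyond 4 experiments, so p-values measure the spread between these arrays.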

Additional observations from a re-analysis of the deposited data

Results flagged for a closer look

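For the probe sets of these genes 36 groups of 4 arrays were examined, and Dixon's criterion picked out 1 array; chance flags about 1 in 20 groups. It was Bmi1 4 at the brightest Nfkbia probe set, with a gap of 0.947 of the group's range: 4137, against 2571 to 2636 on the other Bmi1 arrays. Control 4 was the highest control array there, at 3976.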

How the results depend on the processing

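Over 33 other settings the differences of Nfkbia, Birc3, Ccl2 and Cxcl1 kept their direction, but leaving out 1 array gave -0.34 to -0.09 for Nfkbia, -1.16 to -0.73 for Birc3, -1.50 to -0.74 for Ccl2 and -1.50 to -0.26 for Cxcl1 (-0.26 without Bmi1 3, -0.51 without control 4). The cause of the changes below was not tested, and some of the settings also used fewer arrays or genes. With the replicate block (the pairing), 362 genes passed in limma against 18 without it, and 1 of the described genes and 1 of their probe sets against 0. The block changed no call of the other 8 described genes. With the replicate set as a block 191 genes passed, and 1 described gene. With replicates 1 and 2 only, replicates 3 and 4 only, or a filter at the 60th percentile, 0 passed. A constant equal to the median gave 30, and every probe set 9. Higher and lower calls split 12 and 6 as reported, 20 and 8 without centring (28), 6 and 7 with centring on all probe sets and 6 and 1 with quantile normalisation (7). With the block they split 149 and 213, then 221 and 186 without centring (407), 277 and 197 on all probe sets (474) and 157 and 175 with quantiles (332). The median of all genes was -0.03, 0.05, 0.11 and 0.03 under these 4 scalings. The block also gave 312 with averaged probe sets, 273 with no filter, 431 with every probe set, 330 with the smaller constant and 371 with the larger. Of the described genes 1 passed with the block under centring on all probe sets, no filter, every probe set and both constants, and of their probe sets 1 under centring on all probe sets and the larger constant. Leaving out 1 array gave 0 to 20 genes and 0 described genes. Leaving out 1 pair under the block gave 91 to 200 genes (177, 133, 91 and 200 without replicates 1 to 4), 0 to 2 described genes and 0 to 4 of their probe sets, the highest without replicate 1.

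Directions of differences near 0, and that of Tnfaip3 (-0.38 as reported), turned, with no adjusted p under 0.05 in limma. Nfkb2 was 0.10 with replicates 1 and 2 only. With and without the block it was 0.0076 with no filter, 0.063 without centring, 0.12 on all probe sets, 0.035 with quantiles, 0.0069 with every probe set and 0.027 with averaged probe sets. Leaving out an array gave Nfkb2 -0.26 to 0.17, and under the block 0.015 without replicate 2 and 0.093 without replicate 3. Tnfaip3 was 0.12 with replicates 1 and 2 only, and -0.69 to 0.11 leaving out an array. Rela was -0.034 with replicates 3 and 4 only, -0.10 under the block without replicate 1, and -0.22 to 0.15 leaving out an array. Icam1 was -0.0057 with replicates 3 and 4 only and -0.026 to 0.35 leaving out an array. Relb was -0.30 to 0.085 leaving out an array.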

Other observations

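The CXC chemokine genes Cxcl2 and Cxcl5, neutrophil attractants named here after their values were seen, followed the replicate number in both groups as Cxcl1 and Saa3 did. Cxcl2 read 571, 51.1, 5.03 and 361 in Bmi1 arrays 1 to 4, against 370.2, 85.5, 42.2 and 731 in control arrays 1 to 4. Cxcl5 read 225, 2.48, 2.06 and 90.4 in Bmi1 arrays, against 208, 24.4, 13.9 and 228 in control arrays. Both were high in replicates 1 and 4 and low in replicates 2 and 3. Both were lower in the Bmi1 array in 3 of 4 pairs, with pair 1 the exception. After centring, a lower Bmi1 array in 3 of 4 pairs was found for 24.2% of all tested genes. Of the 8 other chemokine and cytokine targets tested, 3 had a higher mean in Bmi1 arrays. The Cxcl5 values on Bmi1 2 and 3 lay below the background of those arrays (6.12 and 4.09). Neither passed in limma without a block (adjusted p = 0.968 and 0.947) or with the replicate block (0.273 and 0.0935). Ccl20, which draws cells bearing its receptor Ccr6, read 52.0, 4.59, 55.4 and 126 in Bmi1 arrays, against 39.8, 17.2, 107 and 303 in control arrays. Its value on Bmi1 2 lay below the background of that array (6.12). Ccl20 did not pass in limma either (adjusted p = 0.955 without a block and 0.172 with the replicate block).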
